A study of Homo sapiens with 6 samples.

Results

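The human mitochondrial genome (chromosome M) carries 37 genes in GENCODE release 29, and all 37 had a row of their own among the 251062 transcript rows of the table. They are 13 mRNAs, 2 ribosomal RNAs (rRNAs) and 22 transfer RNAs (tRNAs). Every gene on chromosome M is included, but the set was chosen with earlier results of these data known. By transcribed strand, 28 belong to the heavy strand (12 mRNAs, 2 rRNAs and 14 tRNAs) and 9 to the light strand (1 mRNA, MT-ND6, and 8 tRNAs). RNA came from 6 libraries labelled Huh7, a line from a human hepatocellular carcinoma, of wild-type genotype per the labels. Normoxia libraries C1 to C3 were kept in 21% oxygen and hypoxia libraries C4 to C6 in a chamber with 1% oxygen, all for 24 h and in the same serum-containing medium. Ribosomal RNA was depleted before sequencing.

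The libraries held 37621426 to 40794783 expected counts, the reads that RSEM assigns to each transcript. Per the labels the replicates are biological, with no word on how cultures were set up, so a p-value here gauges the variation from library to library only. Of 10 hepatocyte markers, 7 were under 1 CPM (counts per 1000000 counts of the library) in both groups and 4 (AFP, APOA1, TTR and GPC3) had 0 counts. Most of this list was thus at or near 0 in libraries labelled as a hepatocellular carcinoma line. The identity of the line was not tested. Their summed level was 9.29 to 11.3 CPM in normoxia and 19.5 to 20.8 CPM in hypoxia. Summed fibroblast markers (5, with COL1A2 at 0) were 76.5 to 79.4 CPM in normoxia and 55.2 to 63.3 in hypoxia. Among those above 1 CPM, COL1A1 was lower in hypoxia (means 75.2 and 53.9 CPM) and PDGFRB higher (2.24 and 5.79). The 4 endothelial markers (KDR at 0) summed to 11.9 to 13 CPM in normoxia and 4.77 to 5.48 in hypoxia. There, CDH5 was lower (means 9.64 and 0.43 CPM) and PECAM1 higher (2.22 and 4.61), so the members of these lists did not move together. The 4 leukocyte markers summed to 7.01 to 7.53 CPM in normoxia and 40.6 to 48.8 in hypoxia, mostly through the lysosomal gene CD68, with the leukocyte gene PTPRC at 0. The 4 epithelial markers summed to 542 to 558 CPM in normoxia and 378 to 395 in hypoxia. Most of this was KRT18 (means 523 and 357 CPM), while KRT8 stood at 28.1 and 28.4. Their part in the results below was not tested. In such bulk samples, fewer cells of a type and less RNA per cell cannot be told apart.

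As background, mitochondria keep a small circular genome that is copied and transcribed inside the organelle by its own polymerase, POLRMT. Both strands are read as long transcripts from a control region, and most mRNAs and rRNAs are released when the tRNAs that lie between them are cut out. The 13 mRNAs encode core subunits of respiratory complexes I, III and IV and of ATP synthase, which use oxygen to make ATP, while all other subunits come from the nucleus. How long many of these mRNAs last depends on proteins encoded in the nucleus, such as LRPPRC and SLIRP.

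The strand of origin is visible in the sequences. The first 60 bases of the light-strand mRNA MT-ND6, whose fall was the steepest, are shown with those of MT-CO1 and MT-ND4, whose falls were the shallowest. All are from GENCODE release 29 transcripts on GRCh38, written 5′ to 3′, and capitals mark each G.
MT-ND6 (chrM:14614-14673, minus strand): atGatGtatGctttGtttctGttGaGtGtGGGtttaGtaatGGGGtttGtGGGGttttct
MT-CO1 (chrM:5904-5963, plus strand): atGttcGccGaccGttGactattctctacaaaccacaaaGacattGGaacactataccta
MT-ND4 (chrM:10760-10819, plus strand): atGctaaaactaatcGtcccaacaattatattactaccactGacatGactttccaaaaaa
These stretches hold 21, 8 and 4 G in 60 bases. Over whole transcripts, G made up 35.6% of MT-ND6 and 6.28% to 16.2% of the 12 heavy-strand mRNAs, and C made up 7.05% of MT-ND6 and 29.5% to 36.0% of the others.

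MT-ATP8 and MT-ATP6 share bases on the heavy strand, as do MT-ND4L and MT-ND4. These stretches are shown because their bases belong to both genes. How reads that reach into them were assigned was not tested.
MT-ATP8 and MT-ATP6 (chrM:8527-8572, 46 bases): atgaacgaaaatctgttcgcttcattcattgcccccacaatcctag
MT-ND4L and MT-ND4 (chrM:10760-10766, 7 bases): atgctaa

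Mitochondrial transcripts made up a smaller part of the RNA in hypoxia. Their share of all expected counts was 6.29, 6.58 and 6.41% in normoxia C1 to C3 and 2.29, 2.33 and 2.22% in hypoxia C4 to C6. The groups stood far apart, with means of 6.43% ± 0.144 and 2.28% ± 0.0543 (SD, n = 3), a 2.82-fold lower share. Nearly all of it was mRNA, since the rRNAs held at most 0.0386% of the mitochondrial counts of a library and the tRNAs none.

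All 13 mRNAs fell at least 2-fold in hypoxia, and for each of them the 3 hypoxia libraries lay below the 3 normoxia libraries. Here and below, levels are CPM scaled by TMM factors (which align the bulk of the genes between libraries), listed in the order C1 to C3 and C4 to C6. A log2 change is given ± its standard error (SE) and is called at an adjusted p under 0.05 in edgeR's quasi-likelihood test over 17396 genes. Of all genes tested, 72.8% were called in either direction, 36.3% were called lower, 11.4% were called and at least 2-fold lower, and 37.6% had hypoxia libraries all below normoxia. The median log2 change was -1.70 for the 12 heavy-strand mRNAs, which ranged from -2.22 to -1.01, against 0.02 over all genes tested. MT-CO1 and MT-ND4 lay within their SEs of a 2-fold fall, and MT-ND4 was at -0.99 without hypoxia C6. When scaled by library totals, the median of all genes moved to -0.13 and that of the 12 mRNAs to -1.85.

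**Figure D1:**
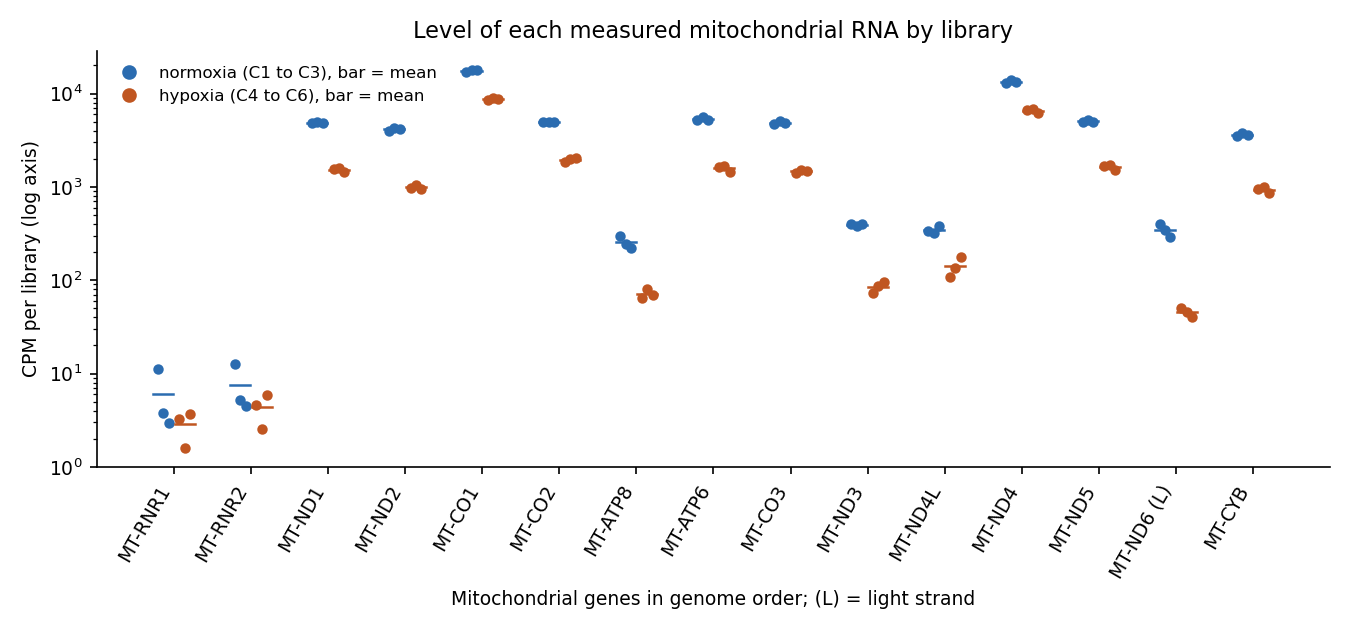
CPM of the 15 measured mitochondrial RNAs on a log axis, in genome order, with 1 point per library and a bar at each group mean (3 libraries each). All mRNA points of hypoxia lie below those of normoxia, from 17594 against 8714 CPM on average for MT-CO1 to 345 against 45.7 for MT-ND6, while the rRNA points of the groups overlap.

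Complex I, the NADH dehydrogenase that feeds electrons into the chain, takes 7 subunits from the mitochondrial genome, and all 7 mRNAs fell, with log2 changes of -2.92 to -1.03. MT-ND1 (chrM:3307-4262), a membrane subunit next to the quinone site, stood at 4785, 4986 and 4806 CPM in normoxia and 1547, 1584 and 1437 CPM in hypoxia. It fell 3.19-fold (log2 change -1.67 ± 0.04, edgeR adjusted p = 1.56e-10). MT-ND2 (chrM:4470-5511), MT-ND4 and MT-ND5 encode the antiporter-type proton channels of the membrane arm. MT-ND2 went from 4012, 4243 and 4128 CPM to 984, 1036 and 953 CPM, a 4.17-fold fall (log2 change -2.06 ± 0.04, edgeR adjusted p = 3.42e-11). For MT-ND4 (ENSG00000198886.2, chrM:10760-12137), the most abundant of the 7 by counts, the values were 13014, 13819 and 13177 CPM in normoxia and 6608, 6754 and 6187 CPM in hypoxia. Its fall was the shallowest of complex I, at 2.05-fold (log2 change -1.03 ± 0.04, edgeR adjusted p = 3.31e-09). MT-ND5 (chrM:12337-14148) had 4931, 5263 and 4992 CPM against 1657, 1715 and 1525 CPM and fell 3.1-fold (log2 change -1.63 ± 0.05, edgeR adjusted p = 4.19e-10).

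The short complex I genes MT-ND3 and MT-ND4L, which encode small membrane subunits, held fewer counts. MT-ND3 (chrM:10059-10404, 346 bases) stood at 402, 379.7 and 401 CPM in normoxia and 73.1, 86.2 and 94.6 CPM in hypoxia. It had the steepest fall of the heavy-strand mRNAs, 4.66-fold (log2 change -2.22 ± 0.08, edgeR adjusted p = 1.70e-09). MT-ND4L (chrM:10470-10766, 297 bases), which shares a bicistronic mRNA with MT-ND4, went from 333, 319 and 385 CPM to 108, 135 and 179 CPM. Hypoxia C6 was the highest of its group and still below normoxia C2, the lowest of the other, and the fall was 2.46-fold (log2 change -1.30 ± 0.15, edgeR adjusted p = 1.64e-05). Its SE was the widest of the 13 mRNAs, and leaving out hypoxia C4 or C6 gave -1.14 or -1.51.

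Complex III, which passes electrons to cytochrome c, has 1 mitochondrially encoded subunit, cytochrome b. Its mRNA MT-CYB (chrM:14747-15887) stood at 3544, 3786 and 3573 CPM in normoxia and 945, 993 and 864 CPM in hypoxia. It fell 3.89-fold (log2 change -1.96 ± 0.05, edgeR adjusted p = 2.34e-10).

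Complex IV, cytochrome c oxidase, is the enzyme that hands electrons to oxygen, and its 3 catalytic subunits are mitochondrial. MT-CO1 (ENSG00000198804.2, chrM:5904-7445), which holds the oxygen-binding site, was the most abundant mitochondrial mRNA by counts, with 16881, 18014 and 17888 CPM in normoxia and 8601, 8851 and 8689 CPM in hypoxia. It fell 2.02-fold (log2 change -1.01 ± 0.03, edgeR adjusted p = 1.02e-09), within the SE of MT-ND4. MT-CO2 (chrM:7586-8269), the subunit that takes electrons from cytochrome c, went from 4988, 4991 and 4898 CPM to 1839, 1988 and 2034 CPM, a 2.54-fold fall (log2 change -1.34 ± 0.04, edgeR adjusted p = 5.84e-10). MT-CO3 (chrM:9207-9990), a core membrane subunit, had 4696, 5027 and 4775 CPM against 1407, 1512 and 1469 CPM and fell 3.3-fold (log2 change -1.72 ± 0.04, edgeR adjusted p = 9.85e-11). The 3 mRNAs of this enzyme therefore did not fall by one amount, since MT-CO3 kept 30.3% of its normoxic level and MT-CO1 49.5%.

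ATP synthase (complex V) takes its proton channel subunit from MT-ATP6 and a small accessory subunit from MT-ATP8. MT-ATP6 (chrM:8527-9207) stood at 5263, 5643 and 5227 CPM in normoxia and 1618, 1685 and 1452 CPM in hypoxia, a 3.39-fold fall (log2 change -1.76 ± 0.06, edgeR adjusted p = 7.02e-10). MT-ATP8 (chrM:8366-8572, 207 bases) had 301, 243 and 223 CPM against 64.9, 81.1 and 69.7 CPM and fell 3.55-fold (log2 change -1.83 ± 0.11, edgeR adjusted p = 9.51e-08). The falls of this overlapping pair lay within their SEs of each other.

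**Figure D2:**
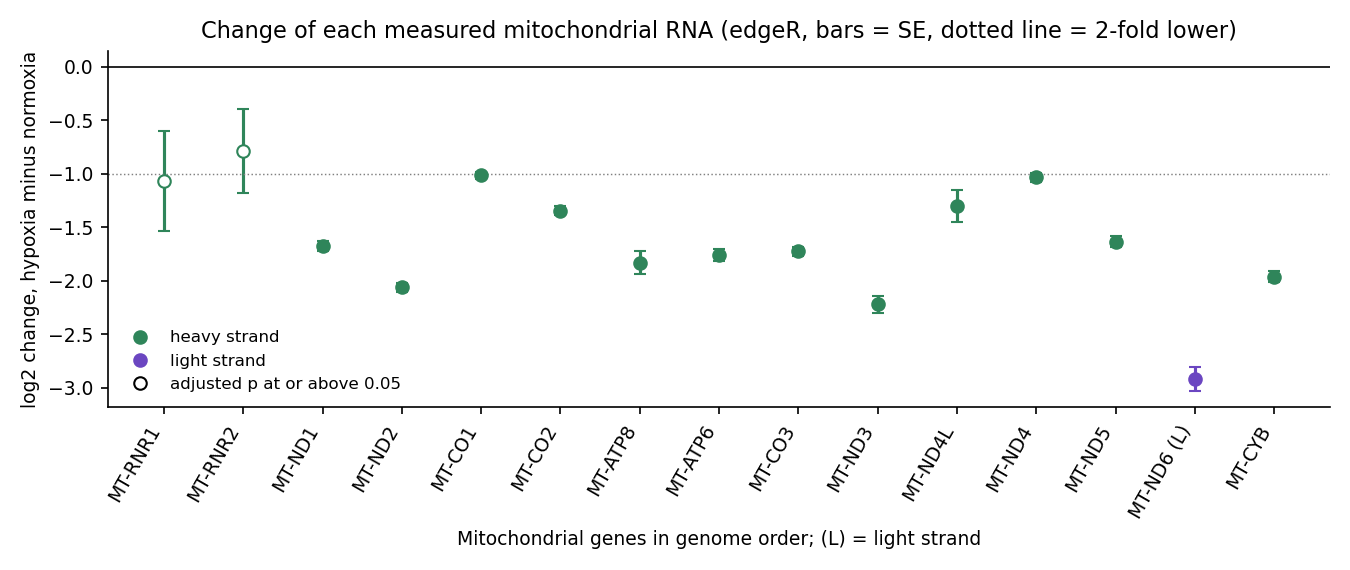
Log2 change (hypoxia minus normoxia, edgeR) of the 15 measured mitochondrial RNAs in genome order, with bars for the SE and open points for RNAs that did not pass. The light-strand mRNA MT-ND6 is lowest at -2.92, MT-CO1 and MT-ND4 lie near the dotted 2-fold line, and the rRNAs have wide bars.

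The light strand is represented by MT-ND6 alone, a complex I membrane subunit (ENSG00000198695.2, chrM:14149-14673, 525 bases). It stood at 398, 345 and 293 CPM in normoxia and 50.9, 46 and 40.4 CPM in hypoxia, a 7.54-fold fall (log2 change -2.92 ± 0.11, edgeR adjusted p = 3.09e-09). To compare it with the heavy strand inside each library, the log2 count per kilobase of MT-ND6 was set against the mean over the 12 heavy-strand mRNAs. This ratio was -2.35, -2.58 and -2.78 in normoxia C1 to C3 and -3.63, -3.89 and -4.02 in hypoxia C4 to C6. All hypoxia libraries lay below all normoxia libraries, with a mean difference of -1.28, a 2.43-fold lower level relative to the heavy-strand mRNAs. The exact two-sided permutation test gave p = 0.1, the smallest that 3 against 3 libraries allow, and adjusted p = 0.15 over the 3 ratios tested. These include the ratio of MT-CO1 and MT-ND4, which was chosen after its values were seen, so this adjustment does not rest on planned ratios alone. Set against its neighbours MT-ND5 and MT-CYB alone, which lie on either side of it on the opposite strand, the difference was -1.11. Whether counting used the strand is not given in the sources used here, so reads of the opposite strand could be part of the MT-ND6 count.

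**Figure D3:**
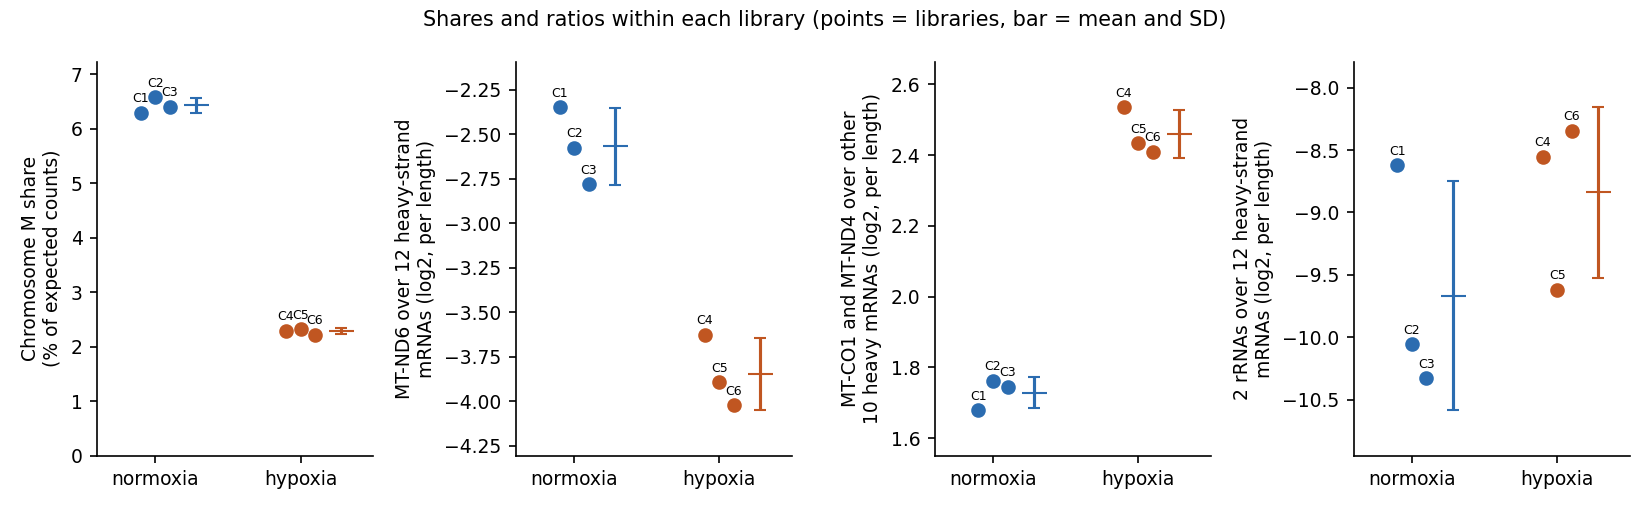
Shares and ratios computed inside each library, with 1 labelled point per library and the mean and SD of each group (3 libraries each): chromosome M percent of expected counts, and 3 log2 ratios of counts per length. The first 3 panels show groups that do not overlap, such as 6.43% against 2.28%, and the rRNA panel shows groups that do.

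MT-CO1 and MT-ND4, which fell least, made up more of the mitochondrial mRNA in hypoxia. Their joint share of the 13 mRNAs' counts was 47, 47.5 and 48% in normoxia and 59.6, 59 and 59.5% in hypoxia. MT-CO1 alone went from 27% ± 0.544 to 34% ± 0.697 (SD, n = 3) and MT-ND4 from 20.5% ± 0.131 to 25.4% ± 0.588. MT-CO2 held 7.62% ± 0.209 and 7.62% ± 0.473, and MT-ND4L 0.531% ± 0.0599 and 0.550% ± 0.152, differences within their SDs, while the other 9 had hypoxia means below their normoxia means. As a log2 ratio to the other 10 heavy-strand mRNAs, per length, MT-CO1 and MT-ND4 stood at 1.68, 1.76 and 1.75 in normoxia and 2.54, 2.43 and 2.41 in hypoxia, a difference of 0.73 with groups that do not overlap. This pair was chosen after its values were seen, and the exact permutation p of 0.1 (adjusted p = 0.15 over the 3 ratios) is the smallest the design allows.

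**Figure D4:**
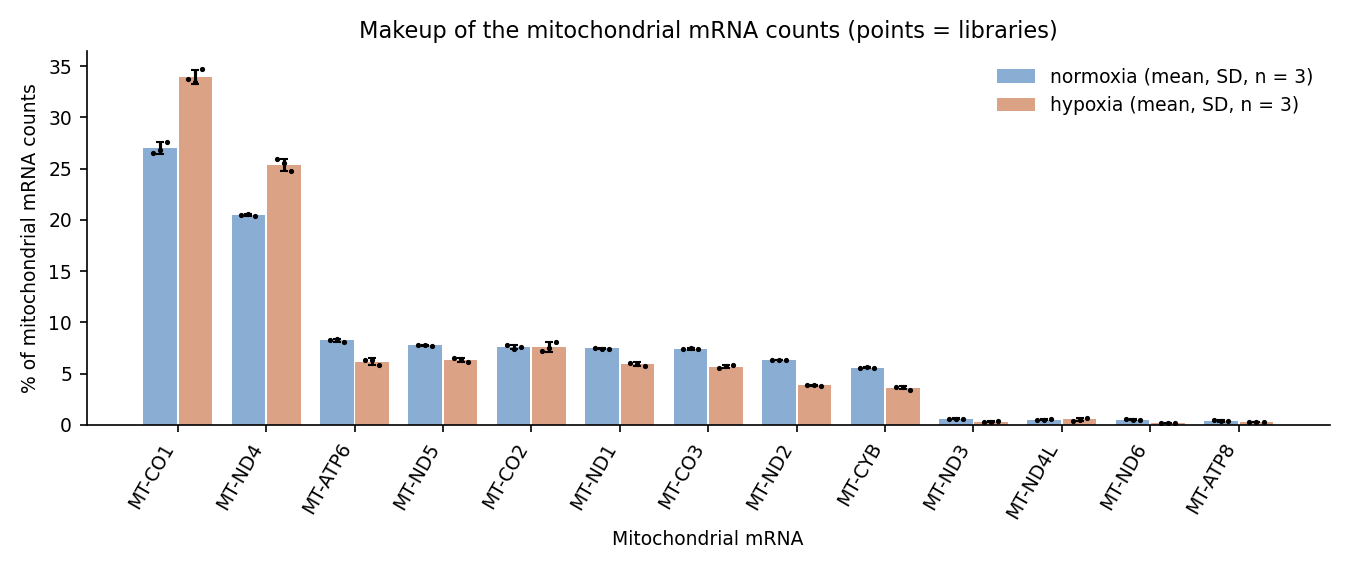
Percent of the mitochondrial mRNA counts held by each of the 13 mRNAs, as mean and SD of 3 libraries per group with points for libraries. MT-CO1 and MT-ND4 hold 47.5% together in normoxia and 59.4% in hypoxia.

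The size of the fall did not follow the order of the genes along the heavy strand. Across the 12 heavy-strand mRNAs, which share libraries and so are no independent points, the log2 change had r = -0.068 (Spearman rho 0) with the start position. With the log2 level in normoxia it had r = 0.461 (rho 0.601), which became 0.0999 without MT-CO1 and MT-ND4. With transcript length it had r = 0.362 (rho 0.357), and -0.024 without that pair. These are descriptions of 12 genes.

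The rRNAs, the structural RNAs of the mitochondrial ribosome, held few counts in these rRNA-depleted libraries. MT-RNR1 (chrM:648-1601), the small-subunit RNA, stood at 11.2, 3.82 and 2.98 CPM in normoxia and 3.28, 1.58 and 3.71 CPM in hypoxia. MT-RNR2 (chrM:1671-3229), the large-subunit RNA, stood at 12.8, 5.25 and 4.46 CPM and 4.6, 2.56 and 5.93 CPM. In both, normoxia C1 was the highest library and the groups overlapped. Neither passed, with log2 changes of -1.07 ± 0.47 (edgeR adjusted p = 0.0606) and -0.78 ± 0.39 (edgeR adjusted p = 0.0958). Without normoxia C1 they were -0.26 and -0.17, and without normoxia C3 both passed at -1.40 and -1.06 (edgeR adjusted p = 0.0141 and 0.0286). MT-RNR1 also passed without normoxia C2, at -1.32 (edgeR adjusted p = 0.0341), and with library totals, at -1.22 (edgeR adjusted p = 0.0359). With no filter on low counts both passed, MT-RNR1 at -1.09 (edgeR adjusted p = 2.19e-04) and MT-RNR2 at -0.81 (edgeR adjusted p = 0.0012). Set against the heavy-strand mRNAs of the same library, the rRNAs had log2 ratios of -8.62, -10.06 and -10.33 in normoxia and -8.55, -9.62 and -8.34 in hypoxia, a difference of 0.83 with an exact permutation p of 0.2 (adjusted p = 0.2 over the 3 ratios). How much rRNA the depletion removed in each library, and its part in these values, was not tested.

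No tRNA could be measured. The 22 tRNA rows, 59 to 75 bases long, held 0 counts in every library, which allows up to 3 counts or 0.0750 to 0.0898 CPM in a library for counting error alone. The table as a whole had no counts at that size, with 0 of the 1338 rows of up to 75 bases above 0 and a shortest counted row of 79 bases, so neither strand's tRNAs can be compared. The shortest and the longest of them and MT-TE, which abuts MT-ND6 on the light strand, show the size that was out of reach, again from GENCODE release 29 and 5′ to 3′.
MT-TS2 (chrM:12207-12265, plus strand, 59 bases): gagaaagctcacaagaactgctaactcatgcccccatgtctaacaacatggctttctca
MT-TE (chrM:14674-14742, minus strand, 69 bases): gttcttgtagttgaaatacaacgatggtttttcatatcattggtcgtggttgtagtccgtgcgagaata
MT-TL1 (chrM:3230-3304, plus strand, 75 bases): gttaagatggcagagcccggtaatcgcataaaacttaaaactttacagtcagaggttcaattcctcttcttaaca

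Between genes, levels can be compared only per length, here as CPM per kilobase of the deposited transcript length. In normoxia the order ran from MT-CO1 with 11410.1 ± 403 (SD, n = 3) and MT-ND4 with 9678 ± 309 over MT-ATP6 with 7896 ± 339, MT-CO2 with 7250.0 ± 77.4 and MT-CO3 with 6164 ± 220.4, to MT-ND1, MT-ND2, MT-CYB and MT-ND5. MT-ATP8, MT-ND4L and MT-ND3 followed with 1234 ± 195, 1164 ± 117 and 1139 ± 35.9, and did not differ beyond their SDs. MT-ND6 stood last of the mRNAs with 658 ± 99.7. In hypoxia MT-CO1 and MT-ND4 led again, with 5651 ± 82.4 and 4729 ± 214, MT-CO2 with 2856 ± 149 stood above MT-ATP6 with 2327 ± 176, and MT-ND6 with 87.1 ± 9.97 was again last. MT-ND2, MT-ND5 and MT-CYB lay close together there, with 951 ± 40.1, 901 ± 53.8 and 819 ± 57.2. Whole lengths were used, with no correction for the size of the sequenced fragments, and its part in the levels of the 3 shortest mRNAs, MT-ATP8, MT-ND4L and MT-ND3, was not tested. MT-ND4L stood far below MT-ND4 although they share a bicistronic mRNA. Levels of such short genes are therefore no measure of mRNA amount.

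Copies of mitochondrial DNA in the nuclear genome may share reads with these genes. The 2 such pseudogenes with the most counts lie on chromosome 1, where MTATP6P1 (chr1:633696-634376) differs from MT-ATP6 at 10 of 681 bases and MTCO1P12 (chr1:631074-632616) from MT-CO1 at 20 of 1542 aligned bases. The 60 bases where MT-ATP6 and its copy differ most show how little separates them, with mismatches in capitals (C129T, A151C and A175G, counted from the first base of MT-ATP6).
MT-ATP6 (chrM:8642-8701): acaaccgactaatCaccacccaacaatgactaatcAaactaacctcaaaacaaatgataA
MTATP6P1 (chr1:633811-633870): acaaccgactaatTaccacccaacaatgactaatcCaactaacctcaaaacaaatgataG
MTATP6P1 held 5.59% to 7.85% of the counts of the pair in a library, MTCO1P12 0.406% to 0.565%, and MTND1P23, the third, 0.147% to 0.295%. With the counts of all such copies added to their mitochondrial genes, MT-ATP6 had a log2 change of -1.77 and MT-CO1 of -1.01, which differ from the values above by less than their SEs.

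The nuclear partners of the same enzymes, listed by gene symbol, had medians nearer 0. Of the nuclear subunit genes of complex I, 23 of the 38 with enough counts fell and 8 rose (median -0.30 on the log2 scale), where the 7 mitochondrial subunits had a median of -1.67. For complex III, 8 of the 10 with enough counts fell and 1 rose (median -0.27 on the log2 scale), beside -1.96 for MT-CYB. For complex IV, 6 of the 12 with enough counts fell and 4 rose (median -0.26 on the log2 scale), beside -1.34 for the 3 mitochondrial subunits. ATP synthase was nearest, since 15 of the 18 with enough counts fell and 1 rose (median -0.80 on the log2 scale), beside -1.80 for MT-ATP6 and MT-ATP8. The symbol puts NDUFA4 under complex I, although its protein is known as a subunit of cytochrome c oxidase. With it counted under complex IV, 23 of 37 complex I genes fell and 8 rose (median -0.34), and 6 of 13 complex IV genes fell and 4 rose (median -0.23). No nuclear subunit of complexes I, III and IV was called at least 2-fold lower, 8 of ATP synthase were, and all 13 mitochondrial ones were. Among these, MT-CO1 and MT-ND4 passed the 2-fold line by less than their SEs. Over all genes tested, 11.4% were called and at least 2-fold lower. At any size of change, 36.3% were called lower and 36.5% higher. The difference between the lists was not tested.

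Nuclear genes of mitochondrial RNA and DNA were mostly lower too. The list covers transcription, DNA replication, RNA processing, RNA stability and decay, and regulators with the protease LONP1. Of its 47 genes, all tested, 35 were called lower and 6 higher, the other 6 missed the threshold, and the median was -0.72 on the log2 scale. The shares over all genes tested were 72.8% called, 36.3% lower and 36.5% higher. They are the background for the counts of each role group below too. Among the 11 listed under transcription, 9 were called lower and 1, TFB1M, higher. Which of them act in transcription in these cells was not tested. The polymerase POLRMT stood at 74.3, 70.5 and 73.2 CPM in normoxia and 68.6, 69.7 and 62.3 CPM in hypoxia and did not pass (log2 change -0.12 ± 0.05, edgeR adjusted p = 0.0602), but it was called lower in 6 of 16 alternatives. With library totals its log2 change was -0.27 (edgeR adjusted p = 8.79e-04), with no filter on low counts -0.15 (edgeR adjusted p = 0.0254) and without hypoxia C5 -0.15 (edgeR adjusted p = 0.0445). In limma on log2(FPKM + 0.1, 0.5 or 1) it was -0.25 to -0.24 (limma adjusted p = 0.0109 to 0.0117). TFAM, which packs the mitochondrial DNA and opens its promoters, went from 39.4, 43.9 and 47.7 to 26.5, 22.1 and 29.7 CPM (log2 change -0.74 ± 0.10, edgeR adjusted p = 7.29e-05). TFB2M, the initiation factor that works with POLRMT, went from 17.2, 19.2 and 17 to 5.47, 5.59 and 6.53 CPM, a 3.04-fold fall (log2 change -1.60 ± 0.10, edgeR adjusted p = 1.06e-07). MTERF2, a member of the mitochondrial termination factor family, went from 7.96, 8.45 and 9.0 to 2.95, 2.56 and 2.52 CPM (log2 change -1.66 ± 0.12, edgeR adjusted p = 3.94e-07), with a log2 change of -1.10 in limma on log2(FPKM + 1), a scale that understates changes of low genes.

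Of the 7 replication genes 6 fell and 1 rose, and the helicase TWNK fell 5.05-fold, from 51, 54.7 and 47 to 10.2, 11.1 and 8.86 CPM (log2 change -2.34 ± 0.09, edgeR adjusted p = 2.65e-09). Of the 5 genes that cut the long transcripts or finish tRNA ends, 4 fell. TRMT10C, a subunit of the enzyme that cuts before each tRNA, fell 3.36-fold, from 43.6, 44.4 and 44.5 to 13.2, 11.9 and 14.3 CPM (log2 change -1.75 ± 0.07, edgeR adjusted p = 3.79e-09). Among the 17 genes of RNA tails, stability, translation and decay, 12 fell and 3 rose. SLIRP and LRPPRC form a complex that protects many mitochondrial mRNAs, and SLIRP went from 25.2, 24.7 and 27 to 13.7, 13.6 and 15.1 CPM (log2 change -0.86 ± 0.07, edgeR adjusted p = 1.33e-06). LRPPRC went from 31, 25.7 and 32.5 to 16.4, 16.7 and 19 CPM (log2 change -0.78 ± 0.10, edgeR adjusted p = 2.87e-05), but was not called when transcript rows were fitted and its main row was read (log2 change -0.36, edgeR adjusted p = 0.274). The last 7 genes are regulators of nuclear mitochondrial genes and, counted among the 7, the protease LONP1, and 4 of them fell and 1 rose. PPRC1 fell 5.07-fold, from 155, 148 and 149.7 to 30.8, 31 and 27.5 CPM (log2 change -2.34 ± 0.06, edgeR adjusted p = 8.55e-11). Its relative PPARGC1B went from 37, 36.9 and 33.4 to 10.3, 12.4 and 11.6 CPM (log2 change -1.65 ± 0.08, edgeR adjusted p = 1.79e-08). The 6 of the 47 that rose, named after their values were seen, were TFB1M, POLG, PDE12, GRSF1, FASTK and LONP1, with log2 changes of 0.45 to 0.80.

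**Figure D5:**
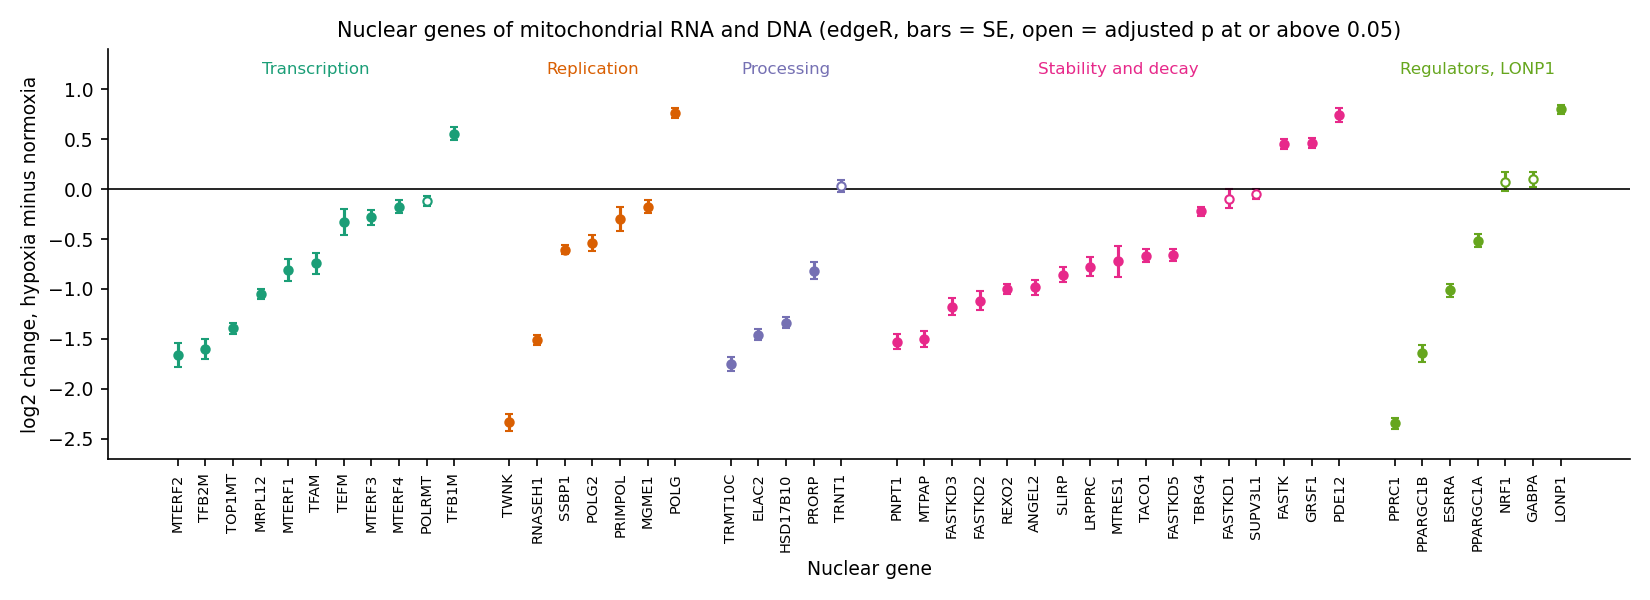
Log2 change (hypoxia minus normoxia, edgeR, bars for the SE) of 47 nuclear genes of mitochondrial RNA and DNA, grouped by role, with open points for genes that did not pass. Most points lie below 0, down to -2.34 for PPRC1, and 6 filled points lie above it, up to 0.80 for LONP1.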

How the data were processed

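The authors deposited 1 table with, per Ensembl transcript and library, an expected count and an FPKM value, and per transcript its length, the counts made with cutadapt, HISAT2 and RSEM on GRCh38 (hg38) per the submitters' processing notes. Versions, annotation and strand setting were not given in the sources used here. Because column names match a group but no single sample, the 6 FPKM columns were not used. Column names give the condition but no replicate number, so libraries are named C1 to C6. Expected counts were summed per GENCODE release 29 gene (202907 of 251062 rows matched, and the others, 6.12% to 6.39% of counts, stayed out of library sizes), rounded, filtered with filterByExpr, TMM-scaled and tested with edgeR 4.0.16 (R 4.3.3), with Benjamini-Hochberg adjustment over all genes tested. Each mitochondrial gene has 1 transcript row. The SE is the log2 change over the square root of F. Alternatives used DESeq2 1.42.0 and limma 3.58.1. The edgeR script was tested on simulated data in which far fewer genes changed than were called here. That run therefore does not gauge its error rate in these data. Within a group, libraries varied beyond counting noise (chi-square over degrees of freedom 4.36 to 10.1). Members and lists were chosen with earlier results of these data known. Named genes are all mitochondrial genes with counts, POLRMT, TFAM, LRPPRC, SLIRP, the 6 called nuclear list genes with the largest changes and the 3 nuclear copies with most counts. The tRNAs printed, the 6 nuclear genes that rose, NDUFA4 and 3 further copies lie outside this rule and were chosen after values were seen. MT- symbols follow GENCODE.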

Additional observations from a re-analysis of the deposited data

How the results depend on the processing

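Each of the 13 mRNAs was called lower under all 16 alternatives, which included DESeq2, limma on FPKM recomputed from counts and lengths, other scalings and filters, transcript rows and each library left out in turn. Without hypoxia C6, MT-ND4 fell slightly less than 2-fold (log2 change -0.99). Adding the nuclear copies, and the ratio of MT-CO1 and MT-ND4, were chosen after seeing the data. Mitochondrial genes called numbered 13 to 15, the extra ones being rRNAs, and nuclear genes called 33 to 44 of 47. The share called over all genes moved too. The 33 came from transcript rows, where 8634 of 16936 genes were called, against 12669 of 17396 in the main fit. Library totals, with 44, had 12638 of 17396. The median of the 12 heavy-strand mRNAs was -1.85 with library totals and with limma on log2(FPKM + 0.1, 0.5 or 1), and -1.72 to -1.66 with 1 library left out. The mitochondrial share differed by -4.43 percentage points over rows with a gene (-4.15 over all rows, and -4.21 to -4.07 with 1 library left out). The MT-ND6 ratio differed by -1.57 on summed counts and by -1.39 to -1.17 with 1 library left out. For the rRNA ratio that range was 0.50 to 1.35, and for MT-CO1 and MT-ND4 0.69 to 0.76. No paired analysis was possible because the column names carry no replicate number of the labels. The rRNAs held 55 to 508 counts a library, and the part of depth in their spread was not tested.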

Other observations

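Of 394 nuclear pseudogenes named for a mitochondrial gene, 90 had any counts, and together they amounted to 0.585% to 0.901% of the mitochondrial counts of a library. Identity to the parent was computed only for the copies with the most counts. Of these, the ones with at least 89.1% identity had fewer counts in hypoxia. MTATP6P1 had 17813, 13657 and 12523 counts in normoxia and 3411, 3937 and 3625 in hypoxia, and MTND2P28, with 98.4% identity to MT-ND2, had 166, 122 and 92.5 and 30.2, 56 and 34.3. MTND6P3, a copy of MT-ND6 on chromosome 5 with 89.1% identity, had 121, 92 and 64 counts in normoxia and 21, 20.0 and 18 in hypoxia. The only more diverged copy among them did not share this pattern. MTCYBP3 on chromosome 13, with 77.2% identity to MT-CYB, had 41, 25 and 35 counts in normoxia and 42, 44 and 49 in hypoxia. These copies were chosen after their values were seen, and the counts were not tested.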
